A study of Mus musculus with 6 samples.

Results

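The common gamma-chain cytokine receptors are surface receptors that share the signalling chain encoded by Il2rg and pair it with a chain of their own. Here they were 8 listed genes: Il7r, Il2ra, Il2rb, Il2rg, Il4ra, Il9r, Il15ra and Il21r. Each was read from the probe set that the platform annotation gives to that symbol alone, the one with the highest mean over the arrays. Of the 8, 7 had such a probe set, 1 each, among 19937 genes measured in this way. Il2rg, the shared chain itself, had none and was not analysed here.

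Total RNA of mouse thymocytes was hybridised to 6 Affymetrix arrays. The labels describe all cells as double-negative (DN) thymocytes, T-cell precursors with neither CD4 nor CD8 on the surface. The labels give C57Bl/6 mice aged 4 to 6 weeks as the source of thymi. The RAG-/- group (3 arrays, called control) was described as DN thymocytes of Rag2-/- mice. These mice cannot assemble antigen receptor genes, and their thymocytes do not pass the DN stage. Some markers of thymic epithelial and myeloid cells were also bright on the RAG-/- arrays, and their levels are given below. The DNTLX3+ group (3 arrays, called tumoral) held sorted DN thymocytes of wild-type mice given a pMSCV-GFP-TLX3 retrovirus, which carries the T-cell leukaemia homeobox gene TLX3. These cells grew on irradiated OP9-DL1 stroma, a line that presents a Notch ligand, for 4 to 5 weeks. Their medium held supernatants with IL-7, itself a ligand of a gamma-chain receptor, and Flt3 ligand. The labels do not make clear whether the RAG-/- cells were cultured, and no array of cells with the empty virus was analysed here. Genotype, virus and possibly culture with added IL-7 therefore cannot be told apart in this comparison. Nothing in the labels ties the replicates to different mice or cultures. The p-values therefore reflect only how far these samples spread, and that spread may be technical.

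Receptors of this family carry no kinase of their own. Ligand binding brings the private chain and the common gamma chain together, the attached kinases JAK1 and JAK3 become active, and STAT proteins, above all STAT5, are phosphorylated and enter the nucleus. In the thymus the IL-7 receptor supports survival and growth of DN cells, and surface CD25, the Il2ra product, marks the DN2 and DN3 stages. Il2rb is best known from natural killer (NK) cells, memory T cells and other cells that respond to IL-2 or IL-15.

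The values are log2 expression values, and differences are DNTLX3+ minus RAG-/- throughout. A gene was called when its limma adjusted p was under 0.05 and its absolute log2 difference was at least 1. The array medians lay between 6.22 and 6.35, and a value below them may be background. The signal range was narrower on DNTLX3+ arrays, with an interquartile range of 2.47 on replicate 1, 2.85 on replicate 2 and 2.75 on replicate 3, against 3.09 to 3.18 on the RAG-/- arrays. Replicates of a typical probe set spread less in RAG-/- (median SD 0.11) than in DNTLX3+ (0.21), and the number of arrays limits the precision. All 12 measured T-lineage markers had means above the array medians in both groups. Over all genes the median difference was 0.11, which cyclic loess, a rescaling between arrays, moved to 0.0005.

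Of the measured receptors, 6 of 7 had a lower mean in the DNTLX3+ cells. Il2rb fell by 2.54 and Il2ra by 1.19 log2 units. Il7r, at -0.996, came just short of the minimum difference, and Il4ra, Il9r, Il15ra and Il21r lay between -0.43 and 0.18. Of the 7 measured receptors 2 were called lower, where 5.07% of all genes were, and 0 higher, where 1.44% were. At the limma adjusted p alone, 4 of 7 were lower (19.4% of all genes) and 0 higher (23.0% of all genes). The groups did not overlap, with the DNTLX3+ values lower, for 5 of 7 receptors (26.0% of all genes), and none of the 7 lay wholly higher (32.3% of all genes). The median difference of the 7 was -0.43. In RNA of sorted cells, as of any bulk sample, fewer cells of a type and less RNA per cell cannot be told apart.

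**Figure D1:**
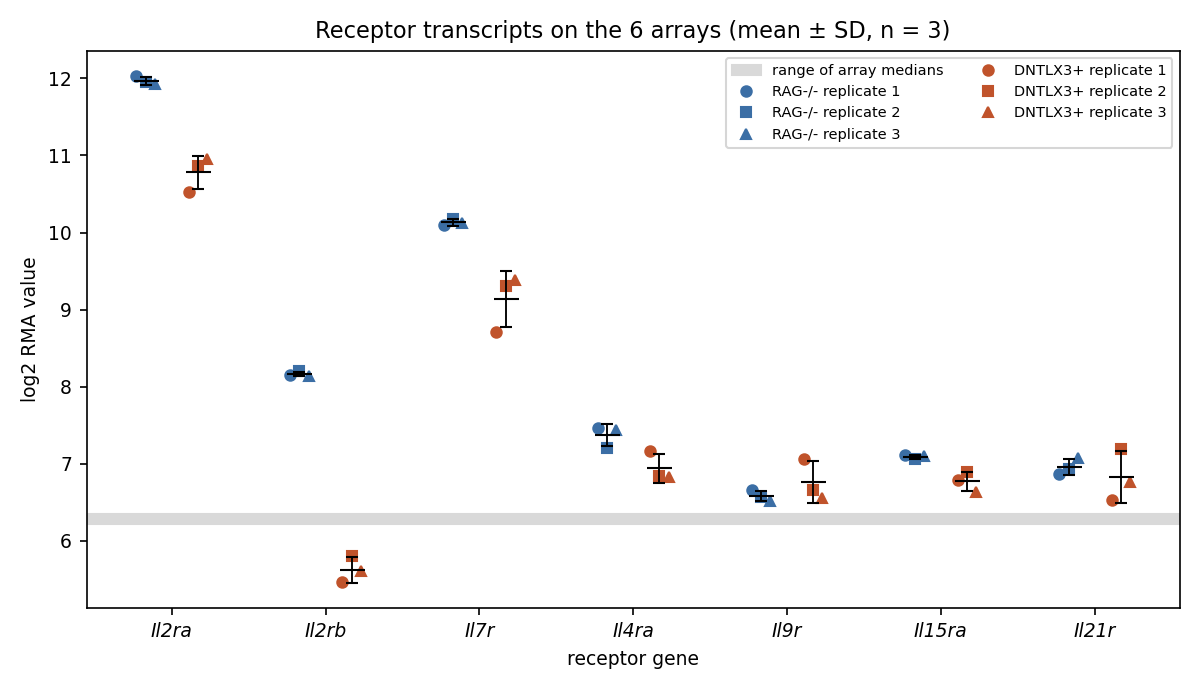
Log2 RMA value of each measured receptor gene on the 3 RAG-/- (blue) and 3 DNTLX3+ (orange) arrays, with mean and SD (n = 3) as black bars and the range of the array medians as a grey band. Il2rb crosses from above to below the band, while Il2ra and Il7r are lower in DNTLX3+ and stay above it.

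Il2rb encodes the beta chain that signals for both IL-2 and IL-15. It was at 8.15, 8.20 and 8.14 on RAG-/- replicates 1, 2 and 3 and at 5.47, 5.80 and 5.61 on DNTLX3+ replicates 1, 2 and 3. The DNTLX3+ values lay below the array medians and far below the lowest RAG-/- value, with a spread in either group much smaller than the gap. The group means were 8.16 ± 0.03 and 5.63 ± 0.17 (SD, n = 3), a log2 difference of -2.54 ± 0.13 (SE) with a limma adjusted p of 1.64e-05. Only 45 of the 19937 genes had a lower log2 difference. Because the lower level may be background, the true size of the fall is not known.

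Genes of NK cells and of some other non-T cells moved with Il2rb. Of 20 NK and cytotoxic markers, 12 were called lower (5.07% of all genes) and 0 higher (1.44%). Ccl5 (-3.68), Fcer1g (-3.10) and the NK receptor Ncr1 (-2.98) were lowest. The summed linear level of the 20 ranged from 4199 to 4840 in RAG-/- and from 1877 to 2324 in DNTLX3+ arrays. Ncr1 stood at 7.65 to 7.96 in RAG-/- and 4.19 to 5.25 in DNTLX3+ arrays, below the medians in the latter. Klrb1c, the NK1.1 antigen, was at 6.78 to 6.93 and 3.75 to 4.40. Gzma went the other way without a call (0.76), and Tbx21 and Eomes, factors that drive Il2rb in NK cells, differed by -0.17 (adjusted p = 0.465) and -0.34 (adjusted p = 0.12). Klrb1c, Gzma, Tbx21 and Eomes, and Klrd1 and Cd244a in the plot of NK markers, were named after their values were seen. The part of NK cells in the fall of Il2rb was not tested.

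**Figure D2:**
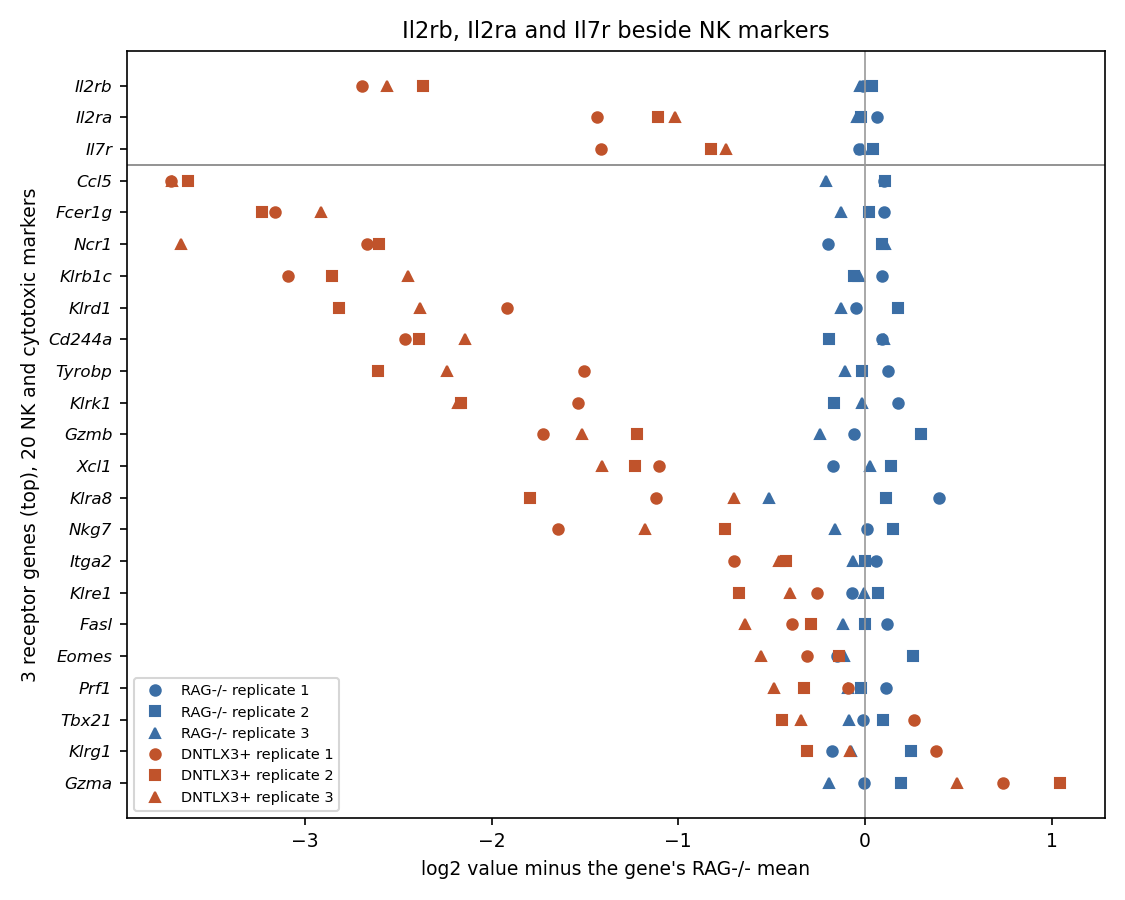
Log2 value on each array minus the gene's RAG-/- mean, for 3 receptors (top) and 20 NK and cytotoxic markers (below, ordered by difference). The DNTLX3+ points of Il2rb lie among those of Klrb1c, Klrd1 and Cd244a, and those of Il2ra and Il7r lie nearer to 0.

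Markers of some other cells fell too. Over all genes, 5.07% were called lower and 1.44% higher. Of 17 myeloid and dendritic markers 15 were called lower, with the antigen-presentation genes H2-Aa (-5.50) and Cd74 (-5.09) lowest (summed level 7169 to 8716 in RAG-/-, 848 to 917 in DNTLX3+). Of 12 thymic epithelial markers 6 were, Prss16 (-5.60) and Ccl25 (-5.01) lowest (6403 to 11600 against 1287 to 1532), as were 4 of 13 fibroblast and stromal markers, Vcam1 (-3.39) lowest (1941 to 2370 against 1113 to 1267). Of 8 measured gamma-delta T and innate lymphoid markers 1 was lower, Il17rb (-1.62), and 1 higher, Il17a (1.00). Their summed levels were 1709 to 1823 and 913 to 1157, in which Il17rb, the brightest (means 10.16 and 8.55), weighed most. The median difference of the 8 was -0.16. Il17a lay under the array medians in RAG-/- (mean 5.33) and near them in DNTLX3+ (6.33). None of 9 B-lineage markers was called (723 to 762 against 521 to 597), and 1 of 9 mast cell markers, Cpa3 (-1.41), was lower (851 to 887 against 755 to 924). The mast cell markers had a median difference of 0.26. Of these 9, 5 lay wholly higher in DNTLX3+ (32.3% of all genes) and 1 wholly lower (26.0%). The 12 T-lineage markers summed to 29460 to 30810 in RAG-/- and 22110 to 26400 in DNTLX3+, with 1 called lower, Ptcra (-1.11). They did not all move 1 way: at the adjusted p alone 7 were lower (19.4% of all genes) and 3 higher (23.0%). The part of these cells in the receptor differences was not tested.

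Il2ra encodes CD25, the alpha chain that gives the IL-2 receptor its high affinity and does not signal by itself. It was at 12.03, 11.95 and 11.92 on RAG-/- replicates 1, 2 and 3, and at 10.53, 10.86 and 10.95 on DNTLX3+ replicates 1, 2 and 3. It was bright in both groups, above at least 97.9% of tested probe sets on every array, and the groups did not overlap. From means of 11.97 ± 0.06 and 10.78 ± 0.22 (SD, n = 3), it was 2.28-fold lower in DNTLX3+, a log2 difference of -1.19 ± 0.14 (SE) with a limma adjusted p of 0.000502. The call held under each of 15 alternative fits, with differences from -1.27 to -1.06.

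Il7r encodes CD127, the private chain of the IL-7 receptor, which also serves the receptor for TSLP. It was at 10.10, 10.18 and 10.12 on RAG-/- replicates 1, 2 and 3, and at 8.71, 9.31 and 9.38 on DNTLX3+ replicates 1, 2 and 3. DNTLX3+ replicate 1 was the lowest by a wide gap, and all 3 lay below every RAG-/- array. The means were 10.13 ± 0.04 and 9.13 ± 0.37 (SD, n = 3). The log2 difference was -0.996 ± 0.18 (SE), with a 95% interval from -1.40 to -0.59 and a limma adjusted p of 0.00295. Il7r was thus 1.99-fold lower and not called by the minimum difference. It was called in 5 of 15 alternative fits: with equal array medians (-1.06) and without RAG-/- replicate 1 (-1.01), RAG-/- replicate 3 (-1.002), DNTLX3+ replicate 2 (-1.08) or DNTLX3+ replicate 3 (-1.12). Without DNTLX3+ replicate 1 the difference was -0.79. Its adjusted p stayed at or below 0.0151 in all 15.

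**Figure D3:**
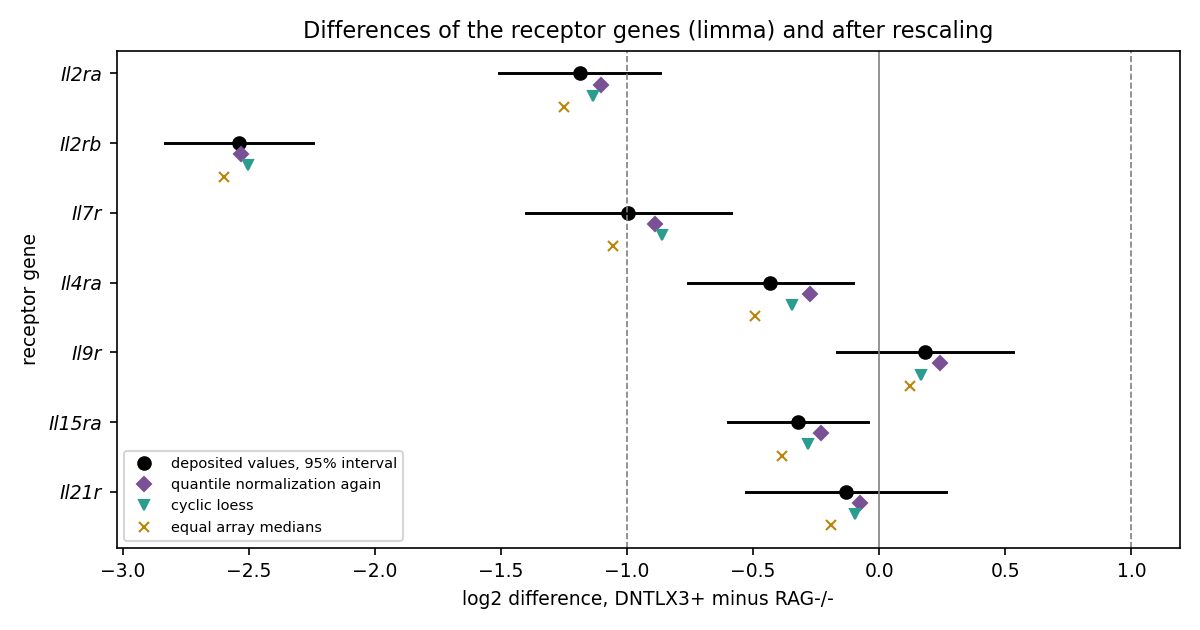
Log2 difference (DNTLX3+ minus RAG-/-) of each measured receptor gene from the deposited values (black, with the limma 95% interval) and after 3 rescalings; dashed lines mark the minimum difference of 1 in either direction. Il2rb and Il2ra stay beyond the line under every rescaling, and Il7r lies on either side of it, at -0.89, -0.86 and -1.06.

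Il4ra, the private chain for IL-4 that also joins the IL-13 receptor, was at 7.47, 7.21 and 7.44 on RAG-/- replicates 1, 2 and 3. On DNTLX3+ replicates 1, 2 and 3 it was at 7.16, 6.84 and 6.82, all lower, though replicate 1 came close to the lowest RAG-/- array. The log2 difference was -0.43 ± 0.14 (SE), with a limma adjusted p of 0.0386. The test no longer passed after quantile normalization again (-0.28, adjusted p = 0.188) or cyclic loess (-0.35, adjusted p = 0.0976). Under both, DNTLX3+ replicate 1 (7.30 and 7.25) lay above RAG-/- replicate 2 (7.13 and 7.16), so the groups overlapped. It also did not pass without any one of the RAG-/- arrays or without DNTLX3+ replicate 2 or 3, with adjusted p from 0.0521 to 0.141.

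Il15ra, which binds IL-15 with high affinity and presents it to neighbouring cells, was at 7.11, 7.06 and 7.10 on RAG-/- replicates 1, 2 and 3. It was at 6.78, 6.89 and 6.64 on DNTLX3+ replicates 1, 2 and 3, so the groups did not overlap. The log2 difference was -0.32 (95% interval -0.60 to -0.05) with a limma adjusted p of 0.0592. The adjusted p ranged from 0.0251 to 0.171 over 15 alternative fits.

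Il21r, the private chain for IL-21, was at 6.87, 6.94 and 7.08 on RAG-/- replicates 1, 2 and 3 and at 6.53, 7.19 and 6.76 on DNTLX3+ replicates 1, 2 and 3. DNTLX3+ replicate 2 was the highest and replicate 1 the lowest of all arrays. The difference was -0.13 (95% interval -0.53 to 0.26, limma adjusted p = 0.556). Il9r, the private chain for IL-9, was at 6.66, 6.57 and 6.52 on RAG-/- and at 7.07, 6.66 and 6.56 on DNTLX3+ replicates 1, 2 and 3, and the groups overlapped. It was the 1 receptor with a positive difference (0.18, 95% interval -0.17 to 0.53, limma adjusted p = 0.361). The intervals of both genes hold no difference of 1 log2 unit. Both genes lay not far above the array medians, which limits what these intervals can show.

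The DNTLX3+ arrays did not rank alike over the receptors. Replicate 1, with the narrowest signal range, was the lowest of the 3 for Il2ra, Il7r, Il2rb and Il21r and the highest for Il4ra and Il9r. After quantile normalization again it was still lowest for Il7r (8.94, against 9.27 and 9.43) and highest for Il9r (7.18, against 6.72 and 6.55). The part of the signal range in these orders was not tested.

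Sequences upstream of the starts are shown for Il7r and Il2ra, the 2 bright receptors with lower values, and for Il4ra, which differed little. RefSeq promoters on GRCm38.p6, from 250 bases before to 50 after a transcript start, were found for 7 of the 8 genes. Il2rb was not in the table. The Il7r promoter lies on chr15:9529827-9530126 (minus strand), that of Il2ra on chr2:11642542-11642841 (plus strand) and that of Il4ra on chr7:125552021-125552320 (plus strand). Capitals mark matches, on either strand, to 6 motifs. The STAT element GAS was read as TTCNNNGAA. The ETS factor core was AGGAAG and the RUNX core was TGTGGT. The core of GATA factors was AGATAA, the homeobox core was TAATTG and the box of core promoters was TATAAA.
Il7r: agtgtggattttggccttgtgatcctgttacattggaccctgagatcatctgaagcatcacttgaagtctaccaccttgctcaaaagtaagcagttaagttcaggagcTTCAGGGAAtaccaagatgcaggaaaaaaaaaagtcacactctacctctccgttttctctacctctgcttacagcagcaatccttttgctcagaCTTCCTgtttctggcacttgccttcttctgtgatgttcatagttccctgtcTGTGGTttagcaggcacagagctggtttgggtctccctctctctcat
Il2ra: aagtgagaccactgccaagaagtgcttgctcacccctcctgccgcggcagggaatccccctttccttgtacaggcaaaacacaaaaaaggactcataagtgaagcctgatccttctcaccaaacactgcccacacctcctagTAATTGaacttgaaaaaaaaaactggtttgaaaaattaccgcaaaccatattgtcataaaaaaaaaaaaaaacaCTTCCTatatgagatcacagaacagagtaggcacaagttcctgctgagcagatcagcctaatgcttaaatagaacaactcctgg
Il4ra: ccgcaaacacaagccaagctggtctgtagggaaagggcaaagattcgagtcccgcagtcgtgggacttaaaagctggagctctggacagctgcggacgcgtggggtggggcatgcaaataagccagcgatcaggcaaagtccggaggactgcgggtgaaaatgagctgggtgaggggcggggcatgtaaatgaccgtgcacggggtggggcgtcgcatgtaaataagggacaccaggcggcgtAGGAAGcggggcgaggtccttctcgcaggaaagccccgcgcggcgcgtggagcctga

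The Il7r promoter held 1 GAS match, at -142 from the start, which 8.30% of all 32851 promoters of this length hold. It also held 1 ETS match at -48 (in 35.4% of promoters) and 1 RUNX match at 3 (16.8%). The Il2ra promoter held an ETS match at -34 and a homeobox core at -108 (8.0% of promoters), and none to GAS. The Il4ra promoter held an ETS match at -7 and no other. Il9r held 2 GATA matches (11.2% of promoters hold at least 1) and 1 RUNX match, Il21r 1 RUNX match and Il15ra, at the first of its 2 starts, 1 ETS match. None of the 7 genes held TATAAA (13.6% of promoters do), and no match overlapped another. Promoters of Il7r and Il2ra were poor in CpG, with 1 and 3 CpG pairs against a median of 7, whereas that of Il4ra held 25. The pair listed for Il15ra held 6 and 15, that of Il9r 5 and that of Il21r 7. GC content was 45.7% for Il7r, 42.7% for Il2ra and 62.0% for Il4ra, with a median of 52.7% over all promoters. Letters in a window are a description and do not show that a factor binds there.

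**Figure D4:**
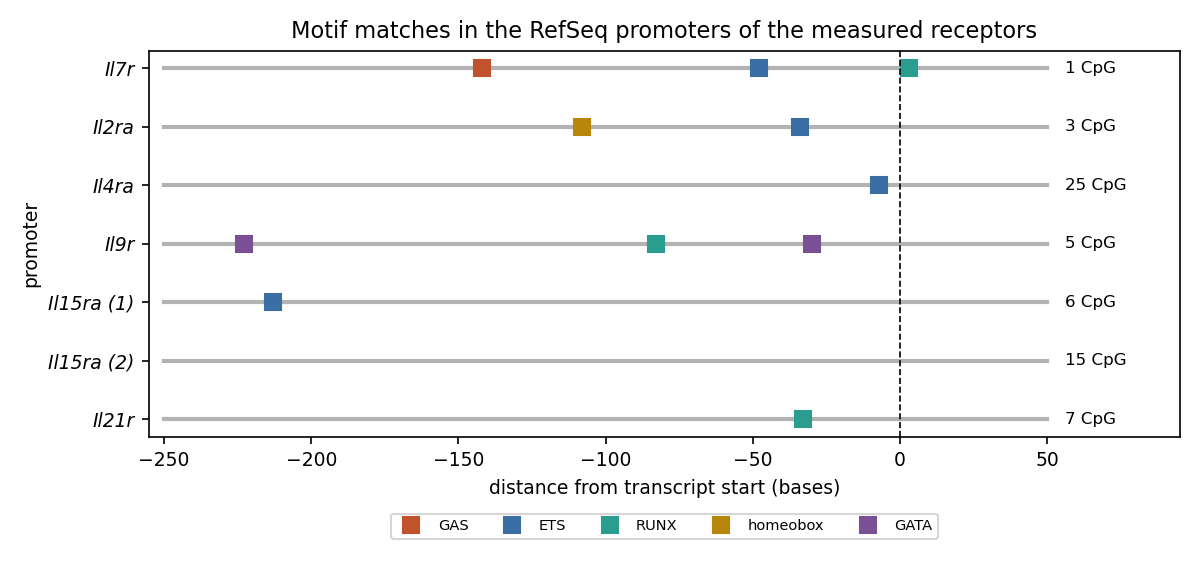
Positions of motif matches from 250 bases before to 50 bases after the transcript start (dashed line) in the RefSeq promoters of 6 measured receptors, with the number of CpG pairs at the right; Il15ra has 2 listed starts. The single GAS match is in Il7r, and Il4ra has the most CpG pairs, 25.

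The receptor genes include 2 pairs of chromosomal neighbours with no protein-coding gene between them in RefSeq. Il2ra and Il15ra lie side by side on chromosome 2, where Il2ra fell by 1.19 and Il15ra stood at -0.32. Their outer neighbours were Rbm17, a splicing factor (0.55, adjusted p = 0.0114), and the helicase Fbh1 (-0.65, adjusted p = 0.0242), neither of which was called. Il4ra (-0.43) and Il21r (-0.13) lie side by side on chromosome 7, flanked by Nsmce1 (0.47, adjusted p = 0.0189) and Gtf3c1 (-0.17, adjusted p = 0.394). Differences between neighbours were not tested.

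The cytokines that bind these receptors were dim. All 8 of the listed ligands and relatives (Il2, Il4, Il7, Il9, Il15, Il21, Il13 and Tslp) had means under the array medians in both groups. Of the 8, 2 were called lower (5.07% of all genes) and 0 higher (1.44%). Their median difference was 0.17 against 0.11 for all genes. Il7, made by thymic epithelium and stroma, was at 5.25, 4.80 and 5.93 on RAG-/- and at 4.35, 4.10 and 3.85 on DNTLX3+ replicates 1, 2 and 3. It differed by -1.23 (adjusted p = 0.00633), and by -0.92 without RAG-/- replicate 3, where it was not called. Il15 was at 5.21, 5.07 and 5.35 and at 4.45, 3.79 and 4.13 in the same order. It differed by -1.08 (adjusted p = 0.00192), and by -0.92 and without a call when DNTLX3+ replicate 2 was left out. Both lay in the range that may be background. Beside them, 6 of 12 thymic epithelial markers were called lower (5.07% of all genes), and 9 of 12 at the adjusted p alone (19.4%). The part of epithelial cells in the differences of Il7 and Il15 was not tested.

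Of the kinases, STATs and adaptors that act downstream of the receptors, none of 13 measured was called. Over all genes 5.07% were called lower and 1.44% higher. At the adjusted p alone 4 of the 13 were lower (19.4% of all genes) and 2 higher (23.0%). The median difference of the 13 was -0.05. Pik3r1, the regulatory subunit of PI3-kinase (-0.72, adjusted p = 0.00953), and the adaptor Gab2 (-0.71, adjusted p = 0.00356) differed most. Jak1 (-0.20, 95% interval -0.50 to 0.09), Stat5a (0.27, -0.04 to 0.58) and Stat5b (-0.05, -0.32 to 0.23), which are named for their role and after their values were seen, did not pass. Jak3 lacked a probe set of its own and was not analysed here.

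Among 12 feedback inhibitors of JAK-STAT signalling 1 was called lower (5.07% of all genes) and 0 higher (1.44%). At the adjusted p alone 3 were lower (19.4% of all genes) and 0 higher (23.0%), and the median difference was -0.23. Cish, a STAT5-induced inhibitor that acts on these receptors, was at 8.50, 7.92 and 8.32 on RAG-/- and at 6.85, 6.84 and 6.62 on DNTLX3+ replicates 1, 2 and 3. The groups lay more than 1 log2 unit apart, and Cish was 2.78-fold lower (log2 difference -1.48 ± 0.17 SE, limma adjusted p = 0.000406). Socs1, another STAT-induced inhibitor, named after its value was seen, differed by -0.23 (adjusted p = 0.205).

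Of 14 genes known to respond to IL-7 or STAT5, 1 was called lower (5.07% of all genes) and 0 higher (1.44%). At the adjusted p alone 4 were lower (19.4% of all genes) and 2 higher (23.0%), and the median difference was -0.26. Bcl2, a survival factor induced by IL-7 in T cells, was at 9.71, 9.48 and 9.71 on RAG-/- and at 8.16, 8.93 and 8.73 on DNTLX3+ replicates 1, 2 and 3. DNTLX3+ replicate 1 was the lowest, as for Il7r. Bcl2 was 2.04-fold lower (log2 difference -1.03 ± 0.20 SE, limma adjusted p = 0.00373), a call lost after quantile normalization again (-0.87), cyclic loess (-0.88) and array weights (-0.91). It was also lost without RAG-/- replicate 1 (-0.993), RAG-/- replicate 3 (-0.992) or DNTLX3+ replicate 1 (-0.81). The survival factor Mcl1 (-0.55, adjusted p = 0.00791) and the kinase Pim1 (-0.565, adjusted p = 0.0119) passed the adjusted p only, as did Myc in the other direction (0.64, adjusted p = 0.0197); these 3 were named after their values were seen.

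None of 17 transcription factors known to act on these receptor genes or on T-cell development was called. The shares called over all genes were 5.07% lower and 1.44% higher. At the adjusted p alone 8 were lower (19.4% of all genes) and 2 higher (23.0%), and the median difference was -0.36. Bach2 (-0.85, adjusted p = 0.00215) and Spi1 (PU.1, an activator of Il7r in lymphoid progenitors, -0.75, adjusted p = 0.0167, with a DNTLX3+ mean under the medians) differed most. Gfi1, a repressor of Il7r in T cells, differed by -0.605 (adjusted p = 0.00708), Foxo1, an activator of Il7r, by -0.31 (adjusted p = 0.155), and Runx3 by 0.44 (adjusted p = 0.0187). The last 3 were named after their values were seen.

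Other cytokine receptors of classes I and II gave a comparison family. Of 35 measured 2 were called lower (5.07% of all genes) and 0 higher (1.44% of all genes). At the adjusted p alone 11 were lower (19.4% of all genes) and 5 higher (23.0%), and the median difference was -0.20. Lifr, the receptor chain for leukaemia inhibitory factor, differed by -1.94 ± 0.27 (SE, adjusted p = 0.000889), from 7.72, 7.55 and 8.43 on RAG-/- to 5.49, 6.29 and 6.11 on DNTLX3+ replicates 1, 2 and 3. Il10rb, the shared chain of receptors for IL-10, IL-22 and type III interferons, differed by -1.56 ± 0.12 (SE, adjusted p = 7.63e-05), from 7.63 to 7.68 down to 5.96 to 6.199. The DNTLX3+ means of both were under the array medians, though Lifr in replicate 2 was not below that array's own median. Crlf2, the partner of Il7r in the TSLP receptor, differed by 0.16 (adjusted p = 0.301), and Il13ra1, the partner of Il4ra, by -0.59 (adjusted p = 0.0274) from means under the array medians; these 2 were named for their partners after their values were seen. The shares called, 2 of 7 and 2 of 35, were not tested against each other.

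**Figure D5:**
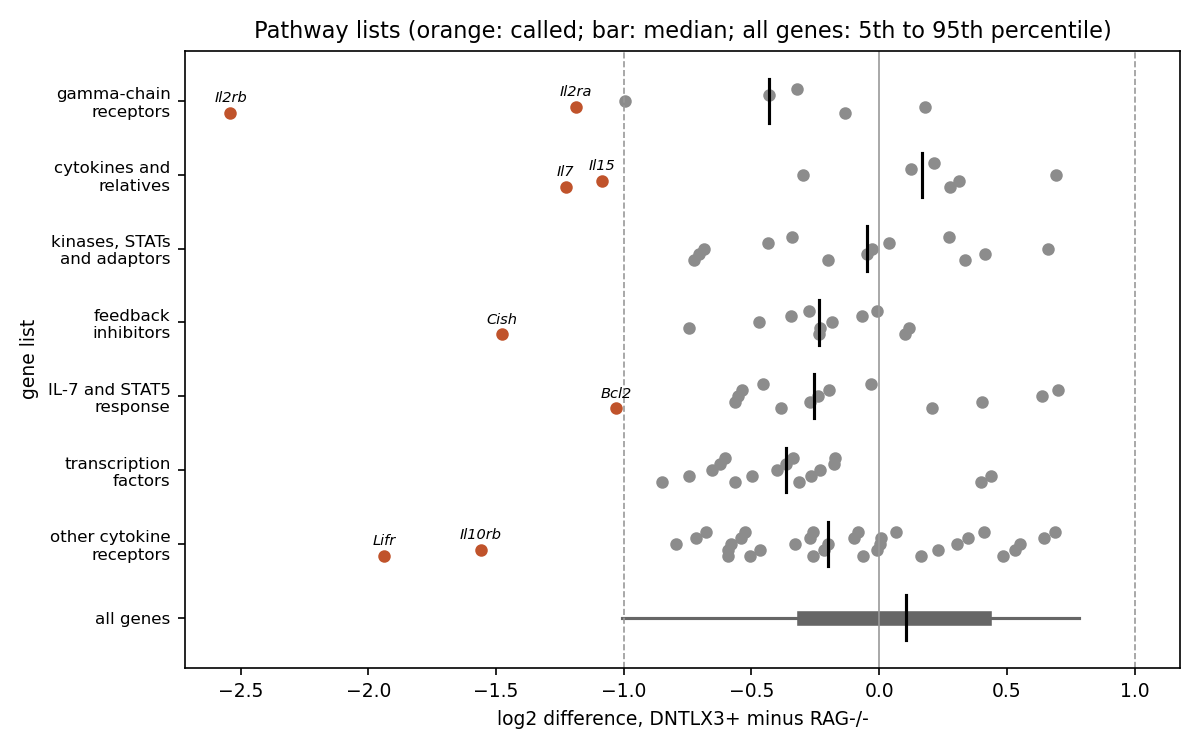
Log2 difference (DNTLX3+ minus RAG-/-) of every measured gene of 7 lists, with called genes in orange and list medians as bars; the lowest row gives the 5th to 95th percentile, the quartiles and the median of all genes. Il2rb has the lowest value shown, and no list has a gene called higher.

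Genes whose pattern over the 6 arrays was nearest to a receptor were found by the root-mean-square difference of log2 values, each gene centred on its own mean. Nearest to Il2ra were Plekha5 (0.02), Cep97 (0.04) and Thoc2 (0.04), and nearest to Il7r were Bmp2k (0.03), Med12l (0.04) and Tnks (0.05). Il2rb had no such close match: Uaca (0.12), Gm4759 (0.16) and C1qa (0.18) came nearest. Fewer genes fell that far: 45 had a lower difference than Il2rb, 600 than Il2ra and 1020 than Il7r. The distances of the 3 receptors are therefore not on equal terms. C1qa, a complement gene of macrophages, differed by -2.76 and Uaca by -2.34. Of these 9, all but Bmp2k (-0.98) and Tnks (-0.94) were called lower (5.07% of all genes). Their choice by likeness to receptors with lower values largely fixes these calls. With 2 groups of 3 arrays, likeness rests mainly on the size of the group difference and on the spread of the DNTLX3+ arrays.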

How the data were processed

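Sample titles gave each array its group and replicate number. The authors deposited log2 values per probe set; the submitters' processing notes name RMA, affy and R 2.9.0. A genome build was not stated in the labels read here. Of 34760 probe sets, 6568 numbered before the annotated ones, with no gene listed, were left out as presumed controls. The remaining 28192 entered 1 limma fit (version 3.58.1, R 4.3.3; moderated two-sided tests, no covariates), with Benjamini-Hochberg adjustment across them all. Genes were named from single-symbol probe sets (21640), the brightest for each gene. RMA equalises probe signals between arrays, yet the spread of probe-set values still differed between the groups, which can alter differences of bright and dim genes. The fit was tested on simulated data.

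The receptors, lists and thresholds were chosen with earlier results of these data known, and the motifs with the promoters in view. Named genes were the receptors, called members of pathway lists (otherwise the 2 largest differences past the adjusted p), up to 3 called markers per cell type, 3 nearest patterns per receptor called or differing by at least 0.9, and neighbours. Alternatives covered scaling, filters, variance models, array weights, the replicate number, the minimum difference, probe set choice and each array left out. Plots used matplotlib 3.10.9.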

Additional observations from a re-analysis of the deposited data

How the results depend on the processing

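Over 15 alternative fits, Il2rb and Il2ra were called lower in each, and Il7r in 5. The number of receptors called lower was 2 or 3 in these fits, 4 with no minimum difference and 1 (Il2rb) by limma treat against a difference of 1. None was called higher. Il21r turned to 0.02, far from a call, without DNTLX3+ replicate 1. Over all genes, 1010 were called lower and 288 higher. With no minimum difference the counts were 3858 and 4595, and by limma treat 122 and 7. With probe sets above the median level only, fewer genes were tested, and 820 were called lower and 147 higher. Dropping each array in turn gave 820 to 1157 lower and 216 to 431 higher. Filters on dim probe sets left no value for Il7 and Il15. With the replicate number as a block, 2 receptors, 1013 genes lower and 289 higher were called, and no receptor changed its call. Deviations of same-numbered arrays correlated at -0.11, 0.06 and -0.00, so the numbers were not treated as pairs. Signals near or below the array medians limit what can be said of Il2rb in DNTLX3+ arrays and of the cytokines. The same holds for Il4ra, Il9r, Il15ra and Il21r, whose group means (6.58 to 7.37) lay not far above the medians.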
